A study of Homo sapiens with 9 samples.

Results

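The genes described here are 39 genes of DNA replication and S phase, the part of the cell cycle in which the genome is copied. They were listed by name for known roles in replication, by a rule that uses no measured value although earlier results of these data were known when the list was made, and are 39 of the 59453 gene names in the count table. All 39 had enough reads to be tested, among 16556 genes tested in all. They were measured by RNA-Seq in MDA-MB-231, an established human triple-negative breast cancer cell line, grown in DMEM with serum and either left untreated or treated with TEPA, a copper-chelating polyamine, for 8 h or for 24 h. Each of the 3 groups had 3 libraries. The same untreated libraries served as the control for both times, so the comparisons at 8 h and at 24 h are not independent of each other. No harvest time is given for the untreated libraries, and the same libraries cannot match both times. Time in culture may therefore differ between the groups along with TEPA exposure, and the effects cannot be told apart. The TEPA concentration is 8 mM in the sample labels and 4 mM in the study's RNA sequencing methods. Nothing states that the 3 libraries of a group came from separate cultures, so the p-values measure the spread between these libraries, which may be technical.

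Replication starts at origins, where the origin recognition complex, CDC6 and CDT1 load the MCM2 to MCM7 ring, the core of the replicative helicase, during G1. In S phase, CDC45 and the GINS complex turn the ring into an active helicase, DNA polymerase alpha with primase lays down primers, and polymerases delta and epsilon extend them with the sliding clamp PCNA. Many of these genes are targets of E2F transcription factors, which are released from the retinoblastoma protein when cyclin E and its kinase become active at the G1/S transition.

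Total counts ran from 34633755 to 49342659 per library. Levels are given as CPM (counts scaled to library size with TMM factors), with the SD over 3 libraries. Fold changes are on the log2 scale with a standard error (SE) from the edgeR quasi-likelihood test, and a gene is called higher or lower when its Benjamini-Hochberg adjusted p, taken over all genes tested, is under 0.05. The mesenchymal and basal markers expected of this line were high, with VIM at 3674 ± 123.6 CPM, CD44 at 858.6 ± 61.3 CPM and EGFR at 435 ± 39.0 CPM in untreated cells. The estrogen receptor gene ESR1 was at 0.155 CPM there and PGR had no count in any library. The epithelial marker CDH1 was at 0.624 ± 0.17 CPM untreated, 0.351 ± 0.11 CPM at 8 h and 3.19 ± 0.79 CPM at 24 h, and EPCAM between 1.122 and 1.446 CPM in the group means. Whether that difference has a part in the results below was not tested. Of the markers of other cells, PTPRC, CD3E, CDH5 and ALB had a mean of at most 0.0675 CPM in each group, while CD14 ranged from 0.763 to 4.05 CPM and PECAM1 from 1.06 to 8.13 CPM between group means. The share of counts from mitochondrially encoded genes was 3.61 to 4.02% at 8 h, against 1.79 to 2.91% in untreated cells and 1.89 to 2.02% at 24 h, and leaving those genes out changed the call of RRM1 at 8 h and that of MCM6 between the times.

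The changes were small and went in both directions. In these bulk libraries, fewer cells in S phase and less RNA per cell cannot be told apart. At 8 h, 9 of the 39 replication genes were called higher (23.1%) and 10 lower (25.6%), against 25.2% higher and 24.5% lower over all genes tested, so the share called in either direction was 48.7% beside a background of 49.6%. At 24 h, 9 were called higher (23.1%) and 13 lower (33.3%), against 25.7% and 26.8% of all genes, or 56.4% in either direction beside 52.5%. Between 8 h and 24 h, 10 were higher at 24 h (25.6%) and 13 lower (33.3%), against 26.0% and 28.8%, or 59.0% in either direction beside 54.8%. Among the 10072 genes whose mean CPM lay in the range of the replication genes, the share called in either direction was 57.9% at 8 h, 62.5% at 24 h and 63.8% between the times. The share of replication genes called thus lay near that of all genes and below that of genes in the same CPM range. This held in each of the 3 comparisons, and neither difference was tested. Within that range, genes were not matched to the replication genes by level. Among the untreated libraries, the chi-square per gene was 25.91 between replicates 1 and 2, 10.18 between 1 and 3 and 7.84 between 2 and 3. Pairs within the TEPA groups had 2.6 to 8.93. Both pairs with untreated replicate 1 lay above that range, and the untreated libraries serve the comparisons at both times. The 9 higher at 8 h became 4 without TEPA 8 h replicate 2 and 5 without untreated replicate 1 or TEPA 8 h replicate 3. The summed level of the 39 genes was 4700 ± 92.2 CPM without TEPA and 4590 ± 32.8 CPM and 4535 ± 77.4 CPM with it for 8 h and 24 h. The libraries ranged from 4594 to 4761, 4553 to 4617 and 4448 to 4596 CPM in these groups, so the ranges overlapped. As a share of raw counts, the sum was 0.458 to 0.469% untreated, 0.447 to 0.451% at 8 h and 0.462 to 0.471% at 24 h.

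**Figure D1:**
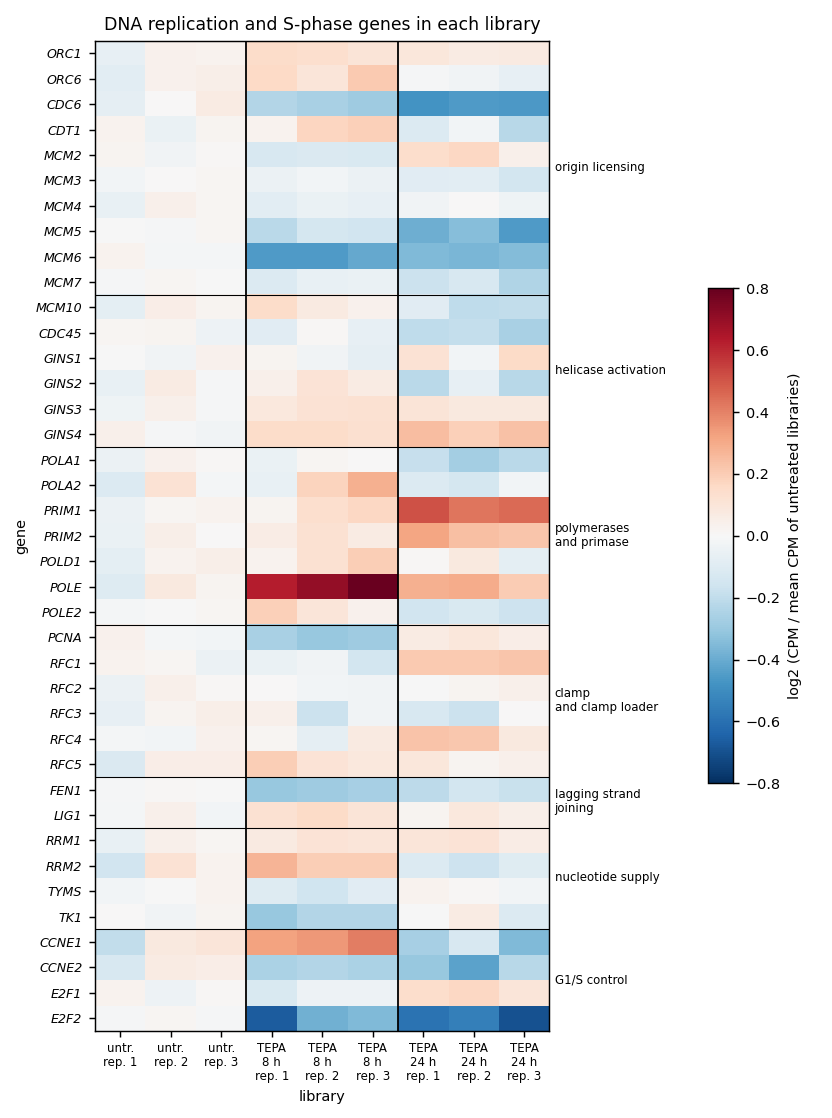
Level of each of the 39 replication and S-phase genes (rows, grouped by role) in each of the 9 libraries (columns), as the log2 ratio of CPM to the mean of the 3 untreated libraries (colour scale from -0.8, blue, to 0.8, red). The darkest cells are those of POLE at 8 h (red), E2F2 at 8 h and 24 h (blue), CDC6 at 24 h, MCM6 at 8 h (blue) and PRIM1 at 24 h (red), while many rows stay pale throughout.

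Only POLE passed a log2 change of 0.5 at 8 h, only E2F2 did at 24 h and only CCNE1 did between the times, which is 2.56% of the replication genes in each comparison. Over all genes tested, 17.8% were called and beyond 0.5 at 8 h, 18.7% at 24 h and 21.2% between the times. Among the genes in the same CPM range, from 6.73 (POLA2) to 476 (MCM4), the shares were 10.4%, 12.2% and 13.9%. The median size of the log2 change, regardless of sign, was 0.118 for the replication genes at 8 h, against 0.224 for all genes and 0.165 for genes in the same CPM range. At 24 h it was 0.133 against 0.242 and 0.187, and between the times 0.171 against 0.254 and 0.194. The signed medians were -0.010, -0.018 and -0.067, against -0.001, 0.002 and -0.016 for all genes. Replication gene transcripts thus moved by less at the median than genes in the same CPM range, which were not matched to them by level within it. No test was made of this difference.

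**Figure D2:**
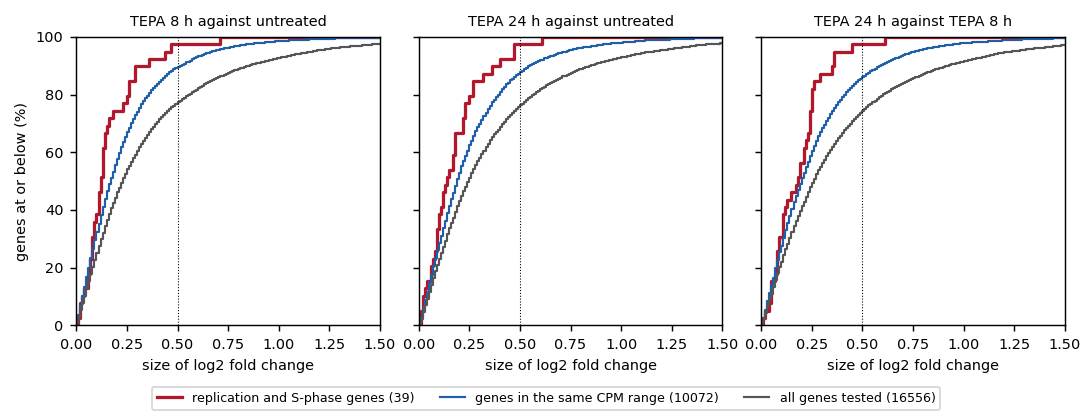
Percent of genes (vertical axis) whose log2 fold change is at or below a given size (horizontal axis), for the 39 replication and S-phase genes (red), the 10072 genes in the same CPM range (blue) and all 16556 genes tested (grey), in the 3 comparisons. The red line lies above the other lines over most of its course and is close to the top at the dotted line at 0.5 in each panel, past which only 1 of the 39 genes lies.

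Letters of a consensus E2F site were sought in the promoters that RefSeq gives for these genes (GRCh38.p14), because many replication genes are known E2F targets. The table matched 35 of the 39 genes (MCM4, MCM5, GINS4 and CCNE2 were not matched). TTTCCCGC, TTTCGCGC, TTTGCCGC or TTTGGCGC, on either strand and within 250 bases before to 50 after the gene start, stood in 19 of these 35 promoters (54.3%) and in 3.33% of all 27305 promoters. CCAAT, the letters of the NF-Y box, stood in 54.3% of the matched promoters against 35.7% of all, and the GC box GGGCGG in 68.6% against 44.6%. Of the 8 matched genes that were lower at 8 h, 6 held the E2F letters, as did 2 of 8 that were higher and 11 of 19 that were not called. At 24 h the counts were 7 of 11 lower, 3 of 8 higher and 9 of 16 not called. The 27305 promoters were not matched to those of the replication genes for GC content or expression, so the contrasts with all promoters allow for neither. A match is a description of the letters and not a measured binding site.

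The 250 bases before the start are shown for 4 of the genes on which the results below turn. They are written 5′ to 3′ on the strand of the gene with the E2F letters in capitals. POLE had the largest rise, MCM6 and E2F2 had the largest falls at 8 h, and PCNA was lower at 8 h and back near its untreated level at 24 h. All 4 hold the letters, while CCNE1, PRIM1, FEN1 and RRM2, on which the results also turn, had no match. In MCM6 there are 4 matches in 2 overlapping pairs, which begin 152, 148, 90 and 86 bases before the start. The match begins 18 bases before the start in POLE, 42 in E2F2 and 59 in PCNA. The windows are chr12:132687343-132687592 for POLE, chr2:135876444-135876693 for MCM6, chr1:23531234-23531483 for E2F2 and chr20:5126623-5126872 for PCNA, all on the minus strand.
POLE: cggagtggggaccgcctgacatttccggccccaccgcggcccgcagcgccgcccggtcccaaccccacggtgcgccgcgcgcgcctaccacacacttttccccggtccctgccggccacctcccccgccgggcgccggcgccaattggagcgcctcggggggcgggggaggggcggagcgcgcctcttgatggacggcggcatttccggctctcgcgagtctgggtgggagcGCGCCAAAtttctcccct
MCM6: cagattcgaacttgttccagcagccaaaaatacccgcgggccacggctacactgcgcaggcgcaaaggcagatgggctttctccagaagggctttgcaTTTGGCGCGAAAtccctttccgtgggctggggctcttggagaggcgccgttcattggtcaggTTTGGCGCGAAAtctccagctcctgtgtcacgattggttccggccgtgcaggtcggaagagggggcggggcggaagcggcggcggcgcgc
E2F2: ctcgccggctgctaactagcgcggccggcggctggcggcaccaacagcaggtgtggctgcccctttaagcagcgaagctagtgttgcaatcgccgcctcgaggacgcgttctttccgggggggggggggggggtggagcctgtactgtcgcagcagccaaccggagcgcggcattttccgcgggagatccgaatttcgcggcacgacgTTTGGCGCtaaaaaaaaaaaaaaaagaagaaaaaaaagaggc
PCNA: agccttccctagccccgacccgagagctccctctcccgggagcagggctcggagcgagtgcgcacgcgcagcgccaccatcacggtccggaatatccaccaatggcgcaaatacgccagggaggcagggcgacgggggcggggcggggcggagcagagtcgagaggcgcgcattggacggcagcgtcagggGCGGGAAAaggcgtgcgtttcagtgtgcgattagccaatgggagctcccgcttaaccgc

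Among the 10 origin licensing genes, 4 were lower (40%) and 2 higher (20%) at 8 h, against 24.5% and 25.2% of all genes, and 5 were lower (50%) and 1 higher (10%) at 24 h, against 26.8% and 25.7%. The largest changes were falls of CDC6, MCM5 and MCM6, while the other subunits of the same MCM ring moved by less or, for MCM2, upward at 24 h. MCM6, a helicase subunit, was at 136, 132 and 131 CPM in the untreated libraries, 97.3, 97.3 and 100.0 CPM at 8 h and 104.3, 103.3 and 104.7 CPM at 24 h. All 6 treated libraries lay below all 3 untreated ones. Its log2 change was -0.44 (SE 0.035, adjusted p = 1e-07) at 8 h and -0.35 (SE 0.035, adjusted p = 5.2e-07) at 24 h, a change in level of -26.2% and -21.7%. MCM6 at 24 h differed from 8 h by 0.084 (adjusted p = 0.053), which passed the threshold under 6 of 8 other settings, DESeq2 among them (0.096, adjusted p = 0.038), and in none of the 6 fits that left out a library.

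CDC6, the ATPase that loads the ring together with CDT1, fell further with time. It was at 96.3, 101.2 and 105.6 CPM in untreated cells, 85.9, 84.4 and 83.0 CPM at 8 h and 72.6, 73.9 and 73.4 CPM at 24 h, with no overlap between any of the groups. The log2 change was -0.26 (SE 0.040, adjusted p = 7.3e-05) at 8 h and -0.46 (SE 0.040, adjusted p = 1.4e-07) at 24 h, and the further fall between the times was -0.20 (adjusted p = 0.00051). MCM5, another ring subunit, had the same order of groups. Its libraries were at 169, 169 and 171 CPM untreated, 146, 154 and 153 CPM at 8 h and 130, 134 and 124 CPM at 24 h. The log2 change of MCM5 was -0.17 (SE 0.038, adjusted p = 0.0015) at 8 h and -0.39 (SE 0.038, adjusted p = 4.4e-07) at 24 h, and between the times it was -0.22 (adjusted p = 0.00014).

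MCM2 changed direction. It stood at 209, 202 and 207 CPM in untreated cells, 188, 190 and 189 CPM at 8 h and 227, 231 and 211 CPM at 24 h, so the 8 h libraries were all below and the 24 h libraries all above the untreated ones. The log2 change was -0.12 (adjusted p = 0.015) at 8 h, 0.12 (adjusted p = 0.017) at 24 h and 0.24 (adjusted p = 6.9e-05) between the times. The call at 24 h was lost without untreated replicate 2, TEPA 24 h replicate 1 or TEPA 24 h replicate 2 (adjusted p = 0.063 to 0.083). MCM3 and MCM7 were lower at 24 h, by a log2 change of -0.105 (adjusted p = 0.014) and -0.18 (adjusted p = 0.00068), and passed no test at 8 h. The MCM3 call was lost without untreated replicate 3 or TEPA 24 h replicate 3 (adjusted p = 0.057 to 0.058). Between the times MCM7 was lower (-0.11, adjusted p = 0.021), a call lost when any of 4 libraries was left out (TEPA 8 h replicate 2 or 3, TEPA 24 h replicate 1 or 3, adjusted p = 0.06 to 0.1), and MCM3 was not called (adjusted p = 0.1). MCM4, at 485, 463 and 479 CPM on average in the 3 groups, passed no test.

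ORC1 and ORC6, subunits of the origin recognition complex, were slightly higher at 8 h, with log2 changes of 0.13 (adjusted p = 0.02) and 0.155 (adjusted p = 0.013). Both calls were lost in some of the fits that left out a library. That of ORC1 was lost without untreated replicate 1, TEPA 8 h replicate 1 or TEPA 8 h replicate 2 (adjusted p = 0.07 to 0.083), and that of ORC6 without untreated replicate 1 or TEPA 8 h replicate 3 (adjusted p = 0.055 to 0.082). At 24 h neither was called, and ORC6 was lower than at 8 h (-0.19, adjusted p = 0.0032). CDT1, the other loading factor, was at 70.2 ± 2.1 CPM untreated, 76.9 ± 4.7 CPM at 8 h and 64.8 ± 4.5 CPM at 24 h. It was not called against untreated cells at 8 h (adjusted p = 0.055) or 24 h (adjusted p = 0.093), but the 24 h libraries were below those at 8 h (-0.25, adjusted p = 0.0012).

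**Figure D3:**
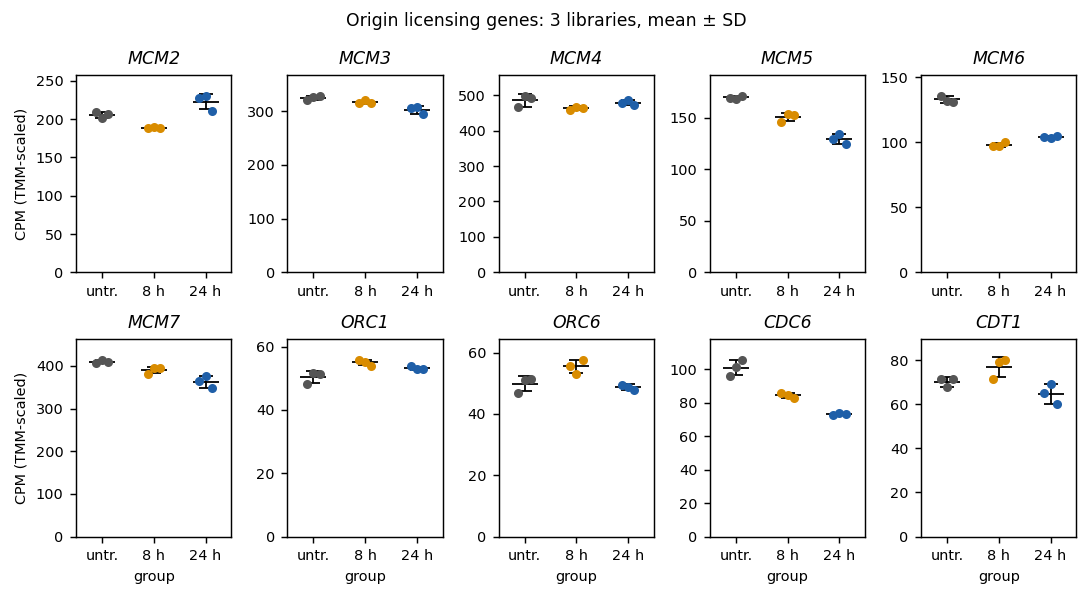
CPM of the 10 origin licensing genes in each library (points), with the mean and SD of each group (bars); the horizontal axis gives untreated cells and TEPA at 8 h and 24 h, and each vertical axis starts at 0. MCM6 drops from 131 to 136 CPM to 97.3 to 100.0 CPM at 8 h, CDC6 and MCM5 step down at each time, MCM7 and MCM3 are lower at 24 h (-11.7% and -7.05%), and MCM4 passed no test.

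Of the 6 genes of helicase activation, 1 was higher (16.7%) and 5 passed no test at 8 h, and 3 were lower (50%) and 1 higher (16.7%) at 24 h, beside 25.2% higher at 8 h and 26.8% lower and 25.7% higher at 24 h over all genes. CDC45 was at 58.6, 58.9 and 56.2 CPM untreated and 50.4, 50.7 and 48.3 CPM at 24 h, a log2 change of -0.22 (SE 0.043, adjusted p = 0.00053). MCM10, which helps to start the helicase, had a log2 change of -0.16 (adjusted p = 0.008) and GINS2 one of -0.17 (adjusted p = 0.017) at 24 h. All 3 were also lower at 24 h than at 8 h, by -0.17 (adjusted p = 0.0039) for CDC45, -0.25 (adjusted p = 0.00031) for MCM10 and -0.24 (adjusted p = 0.0015) for GINS2. The GINS2 call against untreated cells was lost without untreated replicate 2, TEPA 24 h replicate 1 or TEPA 24 h replicate 3 (adjusted p = 0.062 to 0.082).

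The 4 GINS subunits, which form a single complex, did not share a direction. GINS4 was at 21.5, 20.8 and 20.5 CPM untreated, 23.2, 23.2 and 22.9 CPM at 8 h and 24.8, 23.9 and 24.6 CPM at 24 h. It was called higher against untreated cells at each time (0.14, adjusted p = 0.032, then 0.22, adjusted p = 0.0017). The 8 h call of GINS4 was lost in 5 of 6 fits that left out a library, the exception being that without untreated replicate 1 (adjusted p = 0.074 to 0.13), and with DESeq2 in place of edgeR. GINS1 and GINS3 passed no test, with log2 changes of -0.025 and 0.11 at 8 h and of 0.085 and 0.088 at 24 h.

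The polymerase and primase genes held the largest rise. POLE, the catalytic subunit of polymerase epsilon, which copies the leading strand, was at 88.7, 100.9 and 96.7 CPM untreated, 148, 155 and 165 CPM at 8 h and 116, 117 and 110 CPM at 24 h. The 3 groups did not overlap. The log2 change was 0.71 (SE 0.052, adjusted p = 4.2e-08) at 8 h, a level 1.63 times the untreated one, and 0.26 (SE 0.052, adjusted p = 0.00051) at 24 h. Between the times the level fell, with a log2 change of -0.446 (adjusted p = 2.4e-06). POLE2, its second subunit, was at 16.03 ± 0.17 CPM untreated, 17.3 ± 0.94 CPM at 8 h and 14.5 ± 0.21 CPM at 24 h. It was not called at 8 h (0.11, adjusted p = 0.15) or 24 h (-0.15, adjusted p = 0.054), but the fall from 8 h to 24 h was called (-0.26, adjusted p = 0.0021). POLD1, the catalytic subunit of polymerase delta, was at 75.5, 81.9 and 75.8 CPM on average and passed no test, and 8.63% of its exon bases are shared with another gene on the same strand.

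Polymerase alpha and primase form a single enzyme, and its transcripts split at 24 h. PRIM1, the primase subunit that makes the RNA primer, was at 18.6, 19.4 and 19.6 CPM untreated, 19.5, 21.1 and 21.5 CPM at 8 h and 27.3, 25.9 and 26.4 CPM at 24 h. Its log2 change was 0.11 (adjusted p = 0.14) at 8 h and 0.46 (SE 0.057, adjusted p = 5.4e-06) at 24 h, and the difference between the times was 0.36 (adjusted p = 6.6e-05). PRIM2, its partner, was at 29.4, 31.5 and 30.5 CPM untreated and 37.9, 36.0 and 35.6 CPM at 24 h, a log2 change of 0.26 (SE 0.049, adjusted p = 0.00032), with 0.18 (adjusted p = 0.0052) between the times. POLA1, the catalytic subunit of polymerase alpha, moved the other way, from 89.5, 94.7 and 93.3 CPM to 81.4, 76.7 and 79.8 CPM at 24 h (-0.22, SE 0.040, adjusted p = 0.00023), and was lower there than at 8 h (-0.213, adjusted p = 0.00032). POLA2, at 6.6, 7.3 and 6.2 CPM on average, passed no test. Of the exon bases of PRIM1, 15.14% are shared with other genes on the same strand, NACA among them, and of those of POLA2 16.76%, so reads there cannot be assigned with certainty.

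Among the clamp and clamp loader genes, PCNA dipped at 8 h and was back near its untreated level at 24 h. It was at 151, 146 and 145 CPM untreated, 123, 120 and 121 CPM at 8 h and 154, 157 and 153 CPM at 24 h. The 8 h libraries lay below all others. The log2 change was -0.28 (SE 0.035, adjusted p = 7e-06) at 8 h and 0.069 (SE 0.034, adjusted p = 0.11) at 24 h, and the rise between the times was 0.35 (adjusted p = 4.8e-07). RFC1, the large subunit of the loader that opens PCNA, was at 67.9, 67.2 and 64.3 CPM untreated, 64.0, 65.2 and 60.0 CPM at 8 h and 77.0, 76.9 and 77.5 CPM at 24 h, a log2 change of -0.074 (adjusted p = 0.16) and then 0.215 (adjusted p = 0.00044). Of its 4 small partners, RFC4 was higher at 24 h (0.18, adjusted p = 0.0082, lost without TEPA 24 h replicate 1 at adjusted p = 0.054), and RFC5 was called higher at 8 h (0.13, adjusted p = 0.042). That RFC5 call was lost without untreated replicate 1 or any of the TEPA 8 h libraries (adjusted p = 0.053 to 0.19) and with DESeq2. The table also holds pseudogene copies of PCNA, RFC3, FEN1, RRM2 and TYMS, so the counts of these genes are uncertain as far as reads could match a copy. RFC2 and RFC3 passed no test, with mean levels of 91.6 and 68.0 CPM untreated. Between the times RFC1 rose by 0.29 (adjusted p = 2.6e-05) and RFC4 by 0.17 (adjusted p = 0.01, lost without TEPA 8 h replicate 2 or TEPA 24 h replicate 1 at adjusted p = 0.057 to 0.058).

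FEN1 and LIG1, which trim and seal the fragments of the lagging strand, went in opposite directions at 8 h. FEN1 was at 239, 242 and 239 CPM untreated, 194, 197 and 200 CPM at 8 h and 208, 217 and 212 CPM at 24 h. Every treated library was below the untreated ones, with log2 changes of -0.285 (SE 0.033, adjusted p = 4.6e-06) and -0.18 (SE 0.033, adjusted p = 0.00035) and a partial return of 0.11 (adjusted p = 0.012) between the times. LIG1 was at 70.2 ± 1.8 CPM untreated and 76.6 ± 1.3 CPM at 8 h (0.13, adjusted p = 0.013), a call lost without untreated replicate 3 or TEPA 8 h replicate 2 (adjusted p = 0.068 to 0.073), and passed no test at 24 h (adjusted p = 0.28).

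The 4 nucleotide supply genes were all called at 8 h, 2 higher (50%) and 2 lower (50%), against 25.2% and 24.5% of all genes. At 24 h, 1 was higher (25%) and 3 were not called, where 25.7% of all genes were higher and 26.8% lower. A share of 4 genes is coarse, and no test was made of it. TK1, thymidine kinase, was at 218, 213 and 220 CPM untreated, 176, 184 and 185 CPM at 8 h and 217, 227 and 201 CPM at 24 h. Its log2 change was -0.255 (SE 0.043, adjusted p = 0.00016) at 8 h and -0.012 (adjusted p = 0.84) at 24 h, and the rise between the times was 0.24 (adjusted p = 2e-04). TYMS, thymidylate synthase, had a smaller dip of -0.12 (adjusted p = 0.01) at 8 h, lost without TEPA 8 h replicate 2 (adjusted p = 0.053), and a return of 0.12 (adjusted p = 0.0074). The small subunit of ribonucleotide reductase, RRM2, did the reverse. It was at 234, 282 and 265 CPM untreated, 315, 299 and 298 CPM at 8 h and 241, 232 and 243 CPM at 24 h. Its untreated libraries had an SD of 24.4 CPM, the widest of the 39 genes in that group. Its log2 change was 0.22 (SE 0.053, adjusted p = 0.0026) at 8 h and -0.13 (adjusted p = 0.06) at 24 h, with -0.348 between the times (adjusted p = 4.7e-05). RRM1, the large subunit, was at 302, 322 and 322 CPM on average. Its rises of 0.092 (adjusted p = 0.045) and 0.090 (adjusted p = 0.047) at the earlier and later time were called close to the threshold. They were lost in 5 of 6 fits at 8 h (adjusted p = 0.067 to 0.16, the exception being that without untreated replicate 2) and 4 of 6 at 24 h (adjusted p = 0.081 to 0.15, all but those without untreated replicate 2 or TEPA 24 h replicate 3).

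The G1/S control genes showed the largest falls and the widest swing. E2F2, an activating E2F factor, was at 15.1, 15.3 and 15.1 CPM untreated, 9.55, 11.6 and 11.9 CPM at 8 h and 10.1, 10.4 and 9.34 CPM at 24 h. All treated libraries were lower. Its log2 change was -0.46 (SE 0.081, adjusted p = 0.00022) at 8 h and -0.61 (SE 0.081, adjusted p = 1.3e-05) at 24 h, a change in level of -34.45%, and the times did not differ past the threshold (-0.15, adjusted p = 0.15). E2F1, another activating factor, was at 151, 144 and 148 CPM untreated, 136, 143 and 143 CPM at 8 h and 162, 165 and 158 CPM at 24 h. It was not called at 8 h (-0.069, adjusted p = 0.15), while the 24 h libraries were higher than the untreated ones (0.13, adjusted p = 0.0075), with 0.20 between the times (adjusted p = 3e-04).

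The 2 cyclin E genes, whose products activate the kinase that starts S phase, differed in their course. CCNE1 was at 17.3, 21.0 and 21.2 CPM untreated, 24.8, 25.2 and 26.3 CPM at 8 h and 16.5, 18.1 and 15.5 CPM at 24 h. The 8 h libraries were the highest, and those at 24 h overlapped the untreated ones, where replicate 1 was low. The log2 change was 0.36 (SE 0.077, adjusted p = 0.0012) at 8 h, -0.25 (SE 0.079, adjusted p = 0.016) at 24 h and -0.60 (SE 0.078, adjusted p = 8.1e-06) between the times. The call of CCNE1 at 24 h was lost without untreated replicate 2, untreated replicate 3, TEPA 24 h replicate 1 or TEPA 24 h replicate 3 (adjusted p = 0.053 to 0.079). CCNE2 was lower at both times. It was at 38.0, 43.6 and 43.2 CPM untreated, 35.0, 35.4 and 34.9 CPM at 8 h and 33.6, 30.9 and 35.7 CPM at 24 h, with log2 changes of -0.25 (SE 0.061, adjusted p = 0.0033) and -0.32 (SE 0.061, adjusted p = 0.00039) and no call between the times (adjusted p = 0.35).

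**Figure D4:**
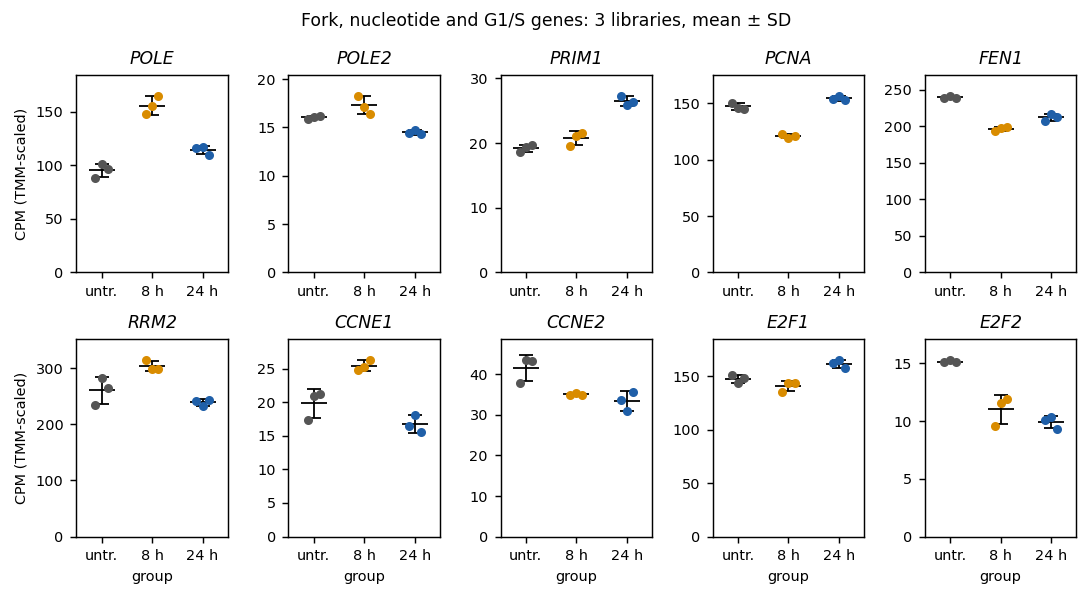
CPM of 10 fork, nucleotide supply and G1/S genes in each library (points), with the mean and SD of each group (bars); the horizontal axis gives untreated cells and TEPA at 8 h and 24 h, and each vertical axis starts at 0. POLE rises from 88.7 to 100.9 CPM to 148 to 165 CPM at 8 h and comes part of the way back, CCNE1 peaks at 8 h, PCNA dips there, PRIM1 rises at 24 h, and E2F2 stays low at both times.

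**Figure D5:**
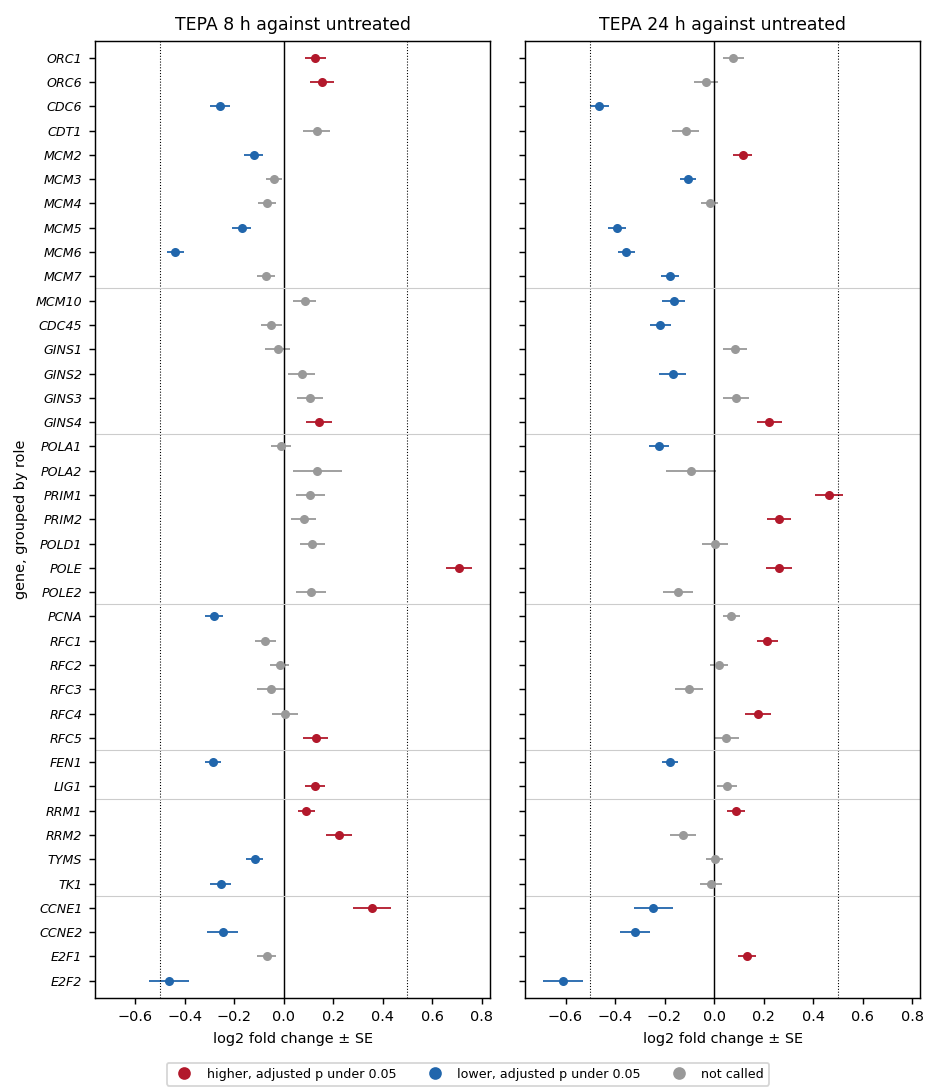
The log2 fold change against untreated cells (points) with its SE (bars) for the 39 replication and S-phase genes, at 8 h (left) and 24 h (right), with higher calls in red, lower calls in blue and the rest in grey. The dotted lines mark a log2 change of 0.5 either way, which POLE passes at 8 h (0.71) and E2F2 at 24 h (-0.61).

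Across both times, 3 genes were called higher at each (GINS4, POLE and RRM1) and 6 lower at each (CDC6, MCM5, MCM6, FEN1, CCNE2 and E2F2). MCM2 was lower and then higher, and CCNE1 higher and then lower. At 24 h and not at 8 h, 5 genes were called higher (PRIM1, PRIM2, RFC1, RFC4 and E2F1) and 6 lower (MCM3, MCM7, MCM10, CDC45, GINS2 and POLA1). The test between the times passed for each of these 11 genes except MCM3. At 8 h and not at 24 h, 5 were called higher (ORC1, ORC6, RFC5, LIG1 and RRM2) and 3 lower (PCNA, TYMS and TK1), and the times differed for ORC6, RRM2, PCNA, TYMS and TK1. The other 9 genes (CDT1, MCM4, GINS1, GINS3, POLA2, POLD1, POLE2, RFC2 and RFC3) were called at neither time against untreated cells. The 3 comparisons share libraries, and the calls at the 2 times share the untreated ones. Of all genes tested, 49.6% were called at 8 h and 52.5% at 24 h. The share of all genes with each of these patterns over both times was not computed. The counts are therefore not read as particular to the replication genes.

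Levels can be compared between genes only per length, here as CPM per kb of exon sequence in the GENCODE annotation (hg38). The length joins the exons of all annotated transcripts of a gene, and can exceed that of the transcripts expressed. It was 7.27 kb for MCM5 and 12.01 kb for POLA2, against 3.65 kb for MCM3. The order of genes below therefore depends on the annotation, and which transcripts were expressed was not tested. In untreated cells TYMS and TK1 stood at 118.2 ± 2.2 and 117.5 ± 2.0 CPM per kb, which did not differ beyond their spread, followed by FEN1 at 109 ± 0.74 and PCNA at 105 ± 2.1. The ring subunits ranged from 23.4 ± 0.21 for MCM5 to 89.25 ± 1.1 for MCM3, with MCM7 at 82.7 ± 0.71, MCM4 at 49.2 ± 1.8, MCM2 at 43.7 ± 0.81 and MCM6 at 32.2 ± 0.61. E2F1 was at 54.9 ± 1.3 CPM per kb and E2F2 at 2.78 ± 0.022. The lowest was POLA2, at 0.553 ± 0.043, and POLE was at 7.72 ± 0.50. At 8 h POLE reached 12.6 ± 0.71 CPM per kb, still below CDC6 at 15.9 ± 0.27.

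Other genes of the same processes were read from lists set by function, and their shares stand beside 25.2% higher and 24.5% lower at 8 h, and 25.7% and 26.8% at 24 h, over all genes tested. Of 16 further origin and helicase genes, 9 were higher (56.2%) and 2 lower (12.5%) at 8 h (median log2 change 0.13), and 8 higher (50%) and 4 lower (25%) at 24 h (0.105). RECQL4, a helicase that acts at origins, rose by 0.81 (adjusted p = 5.1e-09) at 8 h and 0.39 (adjusted p = 5.5e-06) at 24 h. Of CDC7 and DBF4, which form the kinase that fires origins, CDC7 was higher (0.43, adjusted p = 2e-05) and DBF4 lower (-0.38, adjusted p = 1e-04) at 24 h. Of 18 further fork and polymerase genes, 5 were higher (27.8%) and 3 lower (16.7%) at 8 h (median 0.054), and 7 higher (38.9%) and 3 lower (16.7%) at 24 h (0.060). CHTF18, of the alternative clamp loader that works with polymerase epsilon, rose from 56.4 ± 1.9 CPM to 105 ± 4.5 CPM at 8 h (0.89, adjusted p = 1.7e-09) and was at 52.6 ± 2.5 CPM at 24 h. POLD2, a subunit of polymerase delta, was lower at 24 h (-0.75, adjusted p = 3.1e-09), as was the topoisomerase TOP1 (-0.58, adjusted p = 1.2e-08).

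Of 16 further nucleotide supply genes, 6 were higher (37.5%) and 3 lower (18.8%) at 8 h (median 0.017), and 7 higher (43.8%) and 4 lower (25%) at 24 h (0.050). CAD, the entry enzyme of pyrimidine synthesis, rose by 0.69 (adjusted p = 4.7e-08) at 8 h. SAMHD1, which breaks down dNTPs, was higher at 24 h (0.61, adjusted p = 1.1e-09), and TK2, the mitochondrial thymidine kinase, was lower at 8 h (-1.08, adjusted p = 5.9e-08) and 24 h (-0.67, adjusted p = 3.6e-06). Of 9 S-phase chromatin assembly genes, 2 were higher (22.2%) and 3 lower (33.3%) at 8 h, and 1 higher (11.1%) and 5 lower (55.6%) at 24 h (median -0.006 and -0.11). Here the histone chaperone gene ASF1A was lower at 24 h (-0.80, adjusted p = 2.3e-08) and the chromatin remodeller gene HELLS higher (0.53, adjusted p = 5.4e-07). Of 10 replication checkpoint genes, 4 were higher (40%) and 4 lower (40%) at 8 h, and 5 higher (50%) and 2 lower (20%) at 24 h (median -0.016 and 0.053). RAD1 and HUS1, subunits of the same checkpoint clamp, moved apart, with RAD1 lower (-0.85, adjusted p = 4.5e-09) and HUS1 higher (0.53, adjusted p = 9.9e-06) at 24 h.

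Of 21 further E2F and RB pathway genes, 7 were higher (33.3%) and 4 lower (19%) at 8 h (median -0.015), and 3 were higher (14.3%) and 13 lower (61.9%) at 24 h (-0.146), against the 25.7% and 26.8% of all genes. Cyclin A2, CCNA2, was lower at 24 h (-0.51, adjusted p = 4.3e-08), as was E2F5 (-0.585, adjusted p = 3.2e-06), and the CDK inhibitor gene CDKN1A was higher (0.40, adjusted p = 9.7e-06). The 25 mitosis genes taken for comparison had 14 higher (56%) and 1 lower (4%) at 8 h (median 0.097), against 25.2% and 24.5% of all genes. They had 1 higher (4%) and 13 lower (52%) at 24 h (-0.096), against 25.7% and 26.8%, and 18 lower (72%, against 28.8%) at 24 h than at 8 h, with the other 7 not called (-0.223). The summed level of these mitosis genes was 4974 to 5372 CPM untreated, 5762 to 5861 CPM at 8 h and 4739 to 4811 CPM at 24 h. The replication genes, with 9 higher and 10 lower, 9 and 13, and 10 and 13 in the same comparisons, had no such one-sided split, but the difference between the lists was not tested.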

How the data were processed

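RNA-Seq libraries of MDA-MB-231 cells (paired-end, stranded mRNA) were checked by the authors with FastQC, aligned with HISAT2 to hg38 and counted over exons per gene name with featureCounts, strand used. The deposited values are raw read counts, not normalized, with 1 column per library for 59453 gene names. Samples were grouped by the treatment in their labels. The edgeR package (4.0.16, R 4.3.3) was used to filter genes with filterByExpr at a minimum count of 10, leaving 16556, to scale libraries by TMM factors of 0.978 to 1.039 and to fit a quasi-likelihood model with a mean per group to all 9 libraries together. Benjamini-Hochberg adjustment covered every tested gene. SE was computed as |log2 fold change| / √F. The script was tested on simulated data with far fewer changed genes than were called here. Recovery was required there only for changes larger than any among the replication genes. It therefore does not show how well changes of the sizes described here are found. An exact permutation test of 3 against 3 libraries that counts both directions cannot go below p = 0.1, so single-gene permutation tests were not used. Total counts were 34633755 or more per library and the common BCV was 0.0481. For genes with few counts, such as POLA2 and E2F2, counting error is of like size.

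The replication genes and the other gene lists were chosen with earlier results of these data known. Every replication gene is named. From each other list at most the 2 highest and 2 lowest called genes at 8 h or 24 h were eligible to be named. Gene positions and exon lengths are from GENCODE v44, promoters from RefSeq. The alternatives tried were DESeq2 1.42.0, upper-quartile or RLE factors, other filters, a log2 limit of 0.5, only the groups compared, a replicate block, each library left out and, chosen after seeing the data, mitochondrially encoded genes left out. Other cell lines were not analysed here.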

Additional observations from a re-analysis of the deposited data

Results flagged for a closer look

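For 23 of the 39 replication genes the change at 24 h differed from that at 8 h by the direct edgeR test between the times (adjusted p under 0.05), beside 54.8% of all genes tested. The difference equals the log2 change from 8 h to 24 h, since both times share the untreated libraries.

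Among the genes of origin licensing and helicase activation, it was negative for ORC6 (-0.188), CDC6 (-0.205), CDT1 (-0.247), MCM5 (-0.221), MCM7 (-0.107), MCM10 (-0.248), CDC45 (-0.167) and GINS2 (-0.239), and positive for MCM2 (0.239). Each of these but MCM2 had its lowest mean level at 24 h.

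Among the polymerase, primase, clamp and joining genes, it was negative for POLA1 (-0.213), POLE (-0.446) and POLE2 (-0.256), and positive for PRIM1 (0.356), PRIM2 (0.181), PCNA (0.351), RFC1 (0.289), RFC4 (0.171) and FEN1 (0.108). Subunits of the same enzyme stand on both sides here, since POLA1 was lower and PRIM1 and PRIM2 were higher at 24 h than at 8 h.

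Among the nucleotide supply and G1/S genes, it was negative for RRM2 (-0.348) and CCNE1 (-0.603), and positive for TYMS (0.121), TK1 (0.243) and E2F1 (0.202). CCNE1 had the largest difference of the 39 genes, and PCNA the smallest adjusted p (4.8e-07).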

How the results depend on the processing

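No call reversed under any alternative run. With no filter, 4 replication genes were higher at 8 h in place of 9. With a log2 limit of 0.5, 1 was higher and 0 lower at 8 h, and 1 was lower and 0 higher at 24 h and also between the times. Leaving out 1 library gave 4 to 8 higher at 8 h. The median log2 change at 24 h was 0.008 with upper-quartile factors and -0.049 to -0.010 with a library left out, and that between the times was -0.041 with only the 2 groups compared and -0.071 to -0.041 with a library left out. The cause of these shifts was not tested. Same-numbered libraries did not deviate together from their group means (correlations of -0.080 to 0.038, beside -0.054 to 0.073 for unlike numbers). Such weak correlations cannot show whether the numbers mark a shared culture. With a replicate block, the count of genes higher became 6 at 8 h and 8 at 24 h (GINS4, RFC5 and RRM1 were lost at 8 h and RRM1 at 24 h), and no call between the times changed. DESeq2 lost the same 3 genes at 8 h and none at 24 h. Other settings added calls of CDT1 (upper-quartile factors, 10 counts in every library, only the groups compared) and POLD1 (upper-quartile factors) at 8 h, and PCNA (upper-quartile factors) and RRM2 (no filter) at 24 h. Between the times they added MCM6 (RLE and upper-quartile factors, DESeq2, 10 counts in every library, only the groups compared, mitochondrially encoded genes left out), GINS1 (RLE and upper-quartile factors, only the groups compared) and MCM4 (only the groups compared). Some genes gained a call when a library was left out, namely MCM4, CDT1 and POLD1 at 8 h, CDT1, GINS1, RFC3 and RRM2 at 24 h, and GINS1, POLA2, POLD1 and E2F2 between the times. With 3 libraries a group, log2 changes near 0.1 were called or not depending on the library left out. The summed counts cannot show whether protein levels changed or how many cells were in S phase.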
